A study of Sus scrofa with 21 samples.

Results

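Eicosanoids are short-lived lipid signals that blood cells make from arachidonic acid. Cyclooxygenases (PTGS1 and PTGS2) start the prostanoid branch, which thromboxane A synthase (TBXAS1) and prostaglandin E synthase (PTGES) complete, and 5-lipoxygenase (ALOX5) with its activating protein (ALOX5AP) starts the leukotriene branch, from which LTA4H makes leukotriene B4 and LTC4S makes leukotriene C4. LTB4R and LTB4R2 are the high-affinity and the low-affinity receptor of leukotriene B4, a strong attractant of neutrophils. In whole blood, platelets and monocytes are known for making thromboxane, and neutrophils and monocytes for making leukotrienes.

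These 10 genes were followed in the whole blood of DD and LW pigs. A probe was taken as a member when the array gave it 1 of the 10 names. The array held 60305 probes besides its controls, and 20 of them qualified, which covered 9 genes. No probe carried the name LTC4S, so that gene was not analysed here. Once the dimmest 25% of probes had been set aside, 18 member probes and all 9 genes remained among 34393 features tested.

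DD pigs are minipigs of the inbred SLAdd line, which is kept homozygous for its swine leucocyte antigens, and LW pigs are Large White, a lean commercial breed used as the control. The 10 DD pigs were born in 5 litters and the 11 LW pigs in 6, and all were 60 days old, raised on 1 farm, untreated and given a standard diet freely. Each pig had 1 array, on 3 chips that each held both breeds. The paper's quality check found a technical bias on chip 3. Its authors left this bias in the matrix that they tested and put the chip into their model as an effect. As DD pigs came from a single inbred herd, breed and herd cannot be told apart. In whole blood, fewer cells of a type and less RNA per cell cannot be told apart either.

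All values below are log2 intensities of the quantile-normalized matrix, and a difference is DD minus LW from a limma model of breed and chip in which litter was a random block. The arrays of DD pigs were dimmer before normalization. Array brightness, taken as the 75th percentile of processed signal in log2, lay between 6.56 and 8.49 in DD pigs and between 7.37 and 8.62 in LW pigs. The litter means of brightness differed by -0.68 (p = 0.00866 by an exact permutation of litters, two-sided like all those below). The gap of the breeds was -0.07 within chip 1, -0.76 within chip 2 and -1.27 within chip 3.

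At an adjusted p of 0.05, 2 of the 9 genes were called, LTB4R2 and LTB4R, both higher in DD pigs. Across all features 20.9% were called, 11.4% as higher and 9.41% as lower, so the share of members called (22.2%) was close to the background. That share counts LTB4R and LTB4R2 separately, although their probes share 59 of 60 bases. The median difference was 0.09 over the 9 genes and -0.04 over all features. Scaling the arrays to the 75th percentile instead moved the median of all features to 0.07 and the calls from 3935 higher and 3236 lower to 4946 higher and 2155 lower. Under that scaling LTB4R2 was higher by 0.72, LTB4R by 0.67 and TBXAS1 by 0.58. The study had itself singled out TBXAS1 and LTB4R2 on these animals, so their direction here is not independent evidence.

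**Figure D1:**
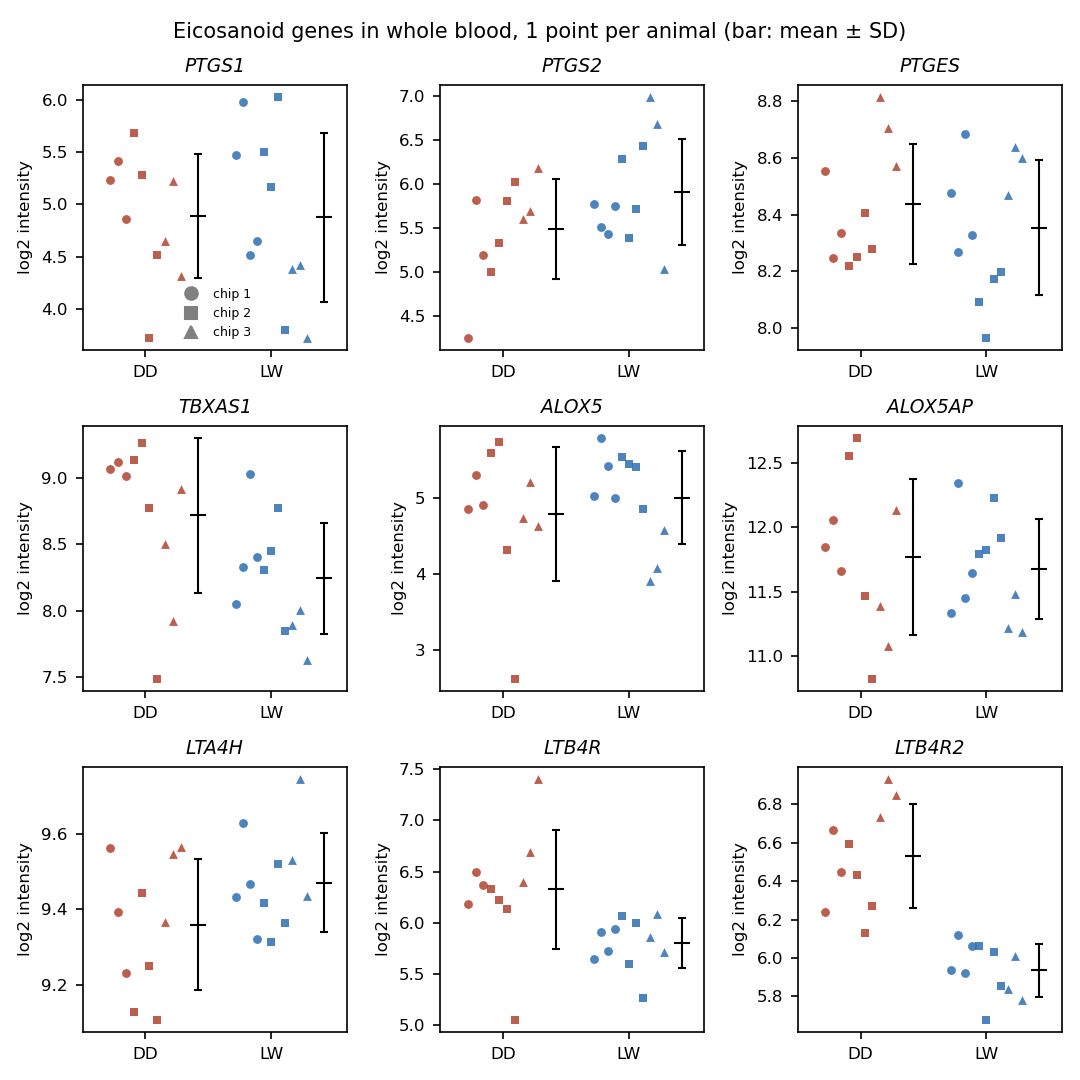
Log2 intensity of the 9 measured genes (y axis, own scale in each panel) in the 10 DD and 11 LW pigs, 1 point per animal, with the chip as symbol and a black bar for the mean ± SD. The LTB4R2 values of the breeds do not overlap, 9 of 10 DD pigs exceed every LW pig for LTB4R, and the other panels overlap.

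The receptor probes need their sequences shown first, since they bear on how many measurements the calls rest on. Capitals mark the bases that the LTB4R and LTB4R2 probes share.

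LTB4R probe O10981: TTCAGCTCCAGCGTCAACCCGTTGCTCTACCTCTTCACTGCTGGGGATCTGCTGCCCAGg
LTB4R2 probe O7451: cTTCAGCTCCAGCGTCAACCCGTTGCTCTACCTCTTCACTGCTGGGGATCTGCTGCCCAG

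The probes are 60 bases long and share 59, shifted against each other by 1 base. They thus read the same stretch of RNA, and the calls of LTB4R and LTB4R2 are repeated readings of 1 target rather than results for each receptor. Which receptor the stretch belongs to was not settled here, as the probes were not compared with genome, transcript or protein sequence. Below, LTB4R and LTB4R2 are only the names that the array gave these probes. The genes are neighbours in Sscrofa11.1, with LTB4R on chromosome 7 from 74972723 to 74978266 and LTB4R2 from 74978871 to 74983811, 604 bases further on.

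LTB4R2 separated the breeds completely. Its probe read between 6.13 and 6.93 in DD pigs, with a median of 6.52, and between 5.68 and 6.12 in LW pigs, with a median of 5.94. All 10 DD pigs were above all 11 LW pigs. The difference was 0.59 ± 0.10 (SE), or 1.51-fold (limma adjusted p = 0.000444). An exact permutation of the litter means gave p = 0.00216, the smallest that 462 divisions allow. Within chips the difference was 0.44, 0.45 and 0.96 on chips 1, 2 and 3. It stayed called with array brightness in the model (0.51, limma adjusted p = 0.0282), but not without chip 3 (0.44, limma adjusted p = 0.0912).

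LTB4R gave a similar difference with a wider spread. Its probe read between 5.05 and 7.41 in DD pigs, with a median of 6.35, and between 5.26 and 6.09 in LW pigs, with a median of 5.86. In the DD group 9 pigs exceeded every LW pig and DD_16 fell below them all. The difference was 0.53 ± 0.16 (SE), or 1.44-fold (limma adjusted p = 0.0292; exact permutation of litter means, p = 0.0238). Without DD_16 it was 0.65 (limma adjusted p = 0.00305). On the array of DD_16 the LTB4R minus the LTB4R2 probe was -1.22, the widest gap of the 21 arrays, against an SD of 0.32 over all of them. The call was lost without chip 1, without chip 3, with no chip term (0.53, limma adjusted p = 0.0866), with array brightness in the model (0.55, limma adjusted p = 0.268), with the mean downstream minus upstream signal of each array in the model (0.43, limma adjusted p = 0.0637) and without any 1 of DD_21, DD_23, LW_18 and LW_22.

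A further probe reads another sequence that the current RefSeq table assigns to LTB4R2, although the array gave it the name TC614844. It shares at most 5 bases in a row with the other receptor probes, so it is a separate reading. It lay between 7.07 and 8.48 in DD pigs and between 6.16 and 7.56 in LW pigs, where 6 DD pigs exceeded every LW pig. The difference was 0.85 ± 0.16 (SE, limma adjusted p = 0.00159; exact permutation of litter means, p = 0.00433). Within chips it was 0.95, 0.78 and 0.84. It stayed called without chip 3 (0.85, limma adjusted p = 0.0269) and with array brightness in the model (1.04, limma adjusted p = 0.00707).

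**Figure D2:**
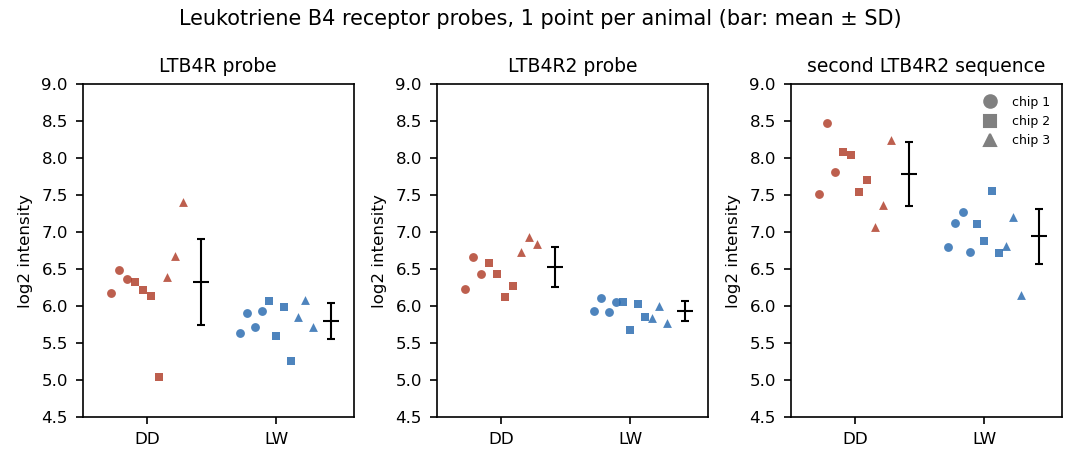
Log2 intensity (y axis, same scale) of the LTB4R probe, the LTB4R2 probe and the separate TC614844 probe assigned to LTB4R2 in 10 DD and 11 LW pigs, 1 point per animal, with the chip as symbol and a black bar for the mean ± SD. DD pigs lie higher in all 3 panels, and the single low DD point for LTB4R is DD_16.

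Thromboxane A synthase was close to the threshold. The gene is on chromosome 18 of Sscrofa11.1, from 9717291 to 9886699. The mean of its probes ranged from 7.48 to 9.26 in DD pigs (median 8.96) and from 7.63 to 9.03 in LW pigs (median 8.30). 4 DD pigs exceeded every LW pig, and DD_16 was again the lowest. The difference was 0.49 ± 0.18 (SE, limma adjusted p = 0.0559; exact permutation of litter means, p = 0.0346). Without DD_16 it was 0.64 (limma adjusted p = 0.00567), and it also passed the threshold without LW_14 (0.55, limma adjusted p = 0.0483) and under 8 other settings of the processing or the chips.

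The TBXAS1 probes differed in their precision. The probe that starts at base 1713 of the transcript read from 10.11 to 11.15 in DD pigs and from 9.46 to 10.42 in LW pigs, and 7 DD pigs exceeded every LW pig. Its difference was 0.56 ± 0.13 (SE, limma adjusted p = 0.00896). A spot that the array names only by a sequence number shares 57 bases with it. That spot gave 0.54 ± 0.13 (SE, limma adjusted p = 0.0101) and differed from it with an SD of 0.09 over the 21 arrays. The upstream probe, at base 770, gave 0.42 ± 0.28 (SE, limma adjusted p = 0.275) and is printed here as the less precise reading.

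TBXAS1 probe A_72_P232602: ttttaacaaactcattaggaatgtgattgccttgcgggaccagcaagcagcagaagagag

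The upstream probe read 4.74 in DD_16 and up to 7.90 in the other DD pigs. The upstream minus the downstream probe ranged from -5.48 to -1.93 over the arrays, and DD_16 had the widest gap. The mean downstream minus upstream signal was taken over 765 other transcripts with probes at least 500 bases apart. It was 2.07 in DD_16, the highest of the DD pigs, whose lowest was 1.48. This signal was 2.03 in DD_13, which read 6.82 with the upstream TBXAS1 probe. In LW pigs it ranged from 1.502 to 2.16. With this measure in the model the downstream probe gave 0.58 (limma adjusted p = 0.0142) and the mean of both probes 0.40 (limma adjusted p = 0.123). The call of the downstream probe was lost without chip 1 (0.49, limma adjusted p = 0.0662) and without chip 2 (0.47, limma adjusted p = 0.063).

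The other prostanoid enzymes were not called. PTGS2, the inducible cyclooxygenase, ranged from 4.25 to 6.19 in DD pigs (median 5.65) and from 5.04 to 6.99 in LW pigs (median 5.74). The difference was -0.45, with a 95% interval from -0.90 to 0.00 (limma adjusted p = 0.137), and the groups overlapped. Its 3 probes gave -0.40, -0.43 and -0.52, and 2 of them share 55 bases. The difference was negative on each chip (-0.53, -0.42 and -0.41), and it passed the threshold when LW_24, a low LW pig, was left out (-0.61, limma adjusted p = 0.0311).

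PTGS1, the constitutive cyclooxygenase, was barely detected. A pair of its probes with the same sequence were among the dimmest 25% and did not follow each other over the arrays, with an SD of 1.42 between them. The third probe was well above background in 4 of 10 DD and 6 of 11 LW pigs. It ranged from 3.72 to 5.69 in DD pigs and from 3.73 to 6.03 in LW pigs. The difference was 0.04, with a 95% interval from -0.51 to 0.59 (limma adjusted p = 0.921), and its sign changed with the processing.

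A probe under the name TC552284, which the array describes as similar to PTGS1, read from 7.49 to 10.5 in DD pigs and from 6.67 to 9.30 in LW pigs. Its difference was 0.90 ± 0.26 (SE, limma adjusted p = 0.0223). Within chips it was -0.01, 1.01 and 1.78, in the same order as the brightness gap between the breeds. With brightness in the model it was 0.01 (limma adjusted p = 0.998).

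PTGES, which makes prostaglandin E2, had 3 probes that moved apart. Probe A_72_P495640, at base 394 of the transcript, ranged from 6.26 to 8.60 in DD pigs (median 6.76) and from 5.44 to 7.26 in LW pigs (median 6.48), and 4 DD pigs exceeded every LW pig. Its difference was 0.72 ± 0.17 (SE, limma adjusted p = 0.00884; exact permutation of litter means, p = 0.00433).

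PTGES probe A_72_P495640: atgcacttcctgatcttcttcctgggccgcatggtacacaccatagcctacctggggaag

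Probe O1007 of the same gene ranged from 13.3 to 14.7 in DD pigs and from 14.0 to 14.7 in LW pigs. It gave -0.33 ± 0.13 (SE, limma adjusted p = 0.0639; exact permutation of litter means, p = 0.00433), the opposite sign. The third PTGES probe was well above background in 0 of 10 DD and 1 of 11 LW pigs and gave -0.12. The mean over the 3 probes, which the gene-level fit used, was 0.09 ± 0.08 (SE, limma adjusted p = 0.46), and it hid this disagreement. Both opposite differences were largest on chip 3 (1.35 and -0.85) and smallest on chip 1 (0.20 and -0.08). With brightness in the model, A_72_P495640 gave 0.21 (limma adjusted p = 0.702).

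Over all member probes, 4 of the 18 were called, all higher in DD pigs. They were O7451 of LTB4R2, O10981 of LTB4R, A_72_P445464 of TBXAS1 and A_72_P495640 of PTGES. Across the array 21.7% of probes were called, so this share was also near the background. O7451 and O10981, which share 59 bases, are counted separately in it.

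**Figure D3:**
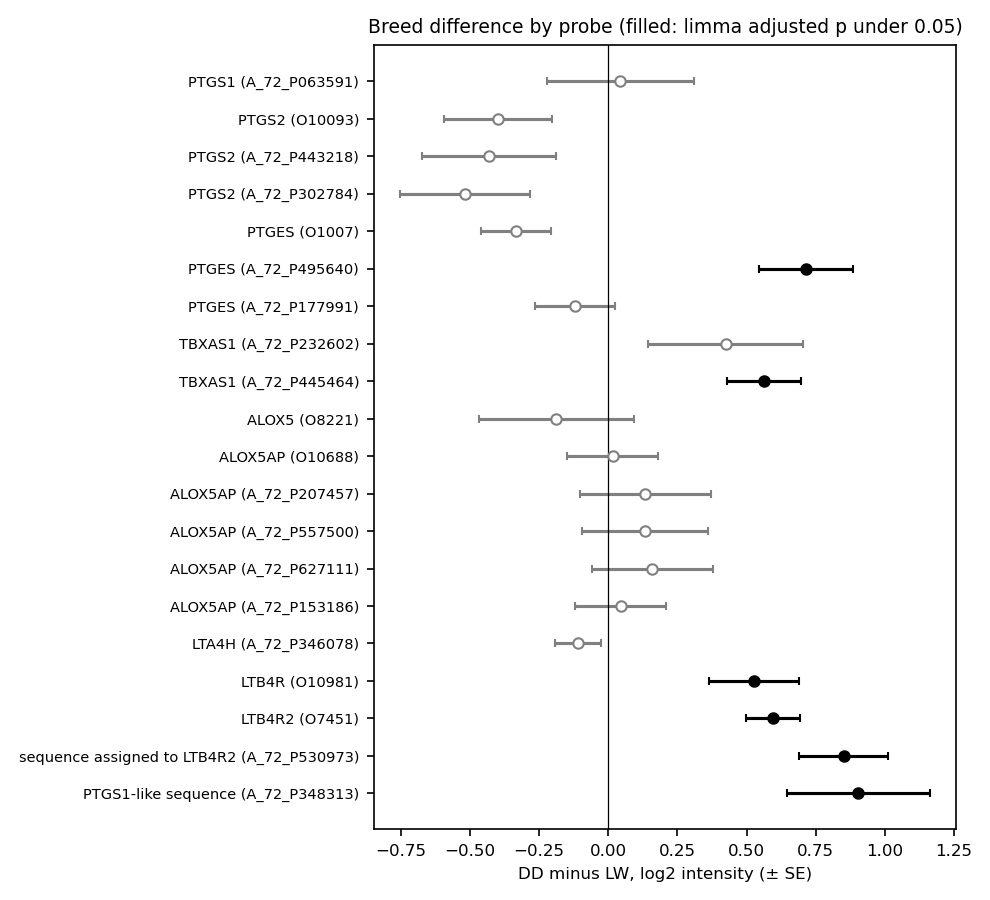
DD minus LW log2 intensity (x axis, ± SE of limma) for the 18 tested member probes and the TC614844 and TC552284 probes (y axis), with filled points for an adjusted p under 0.05. The filled points all lie above 0, while the PTGES probes lie on both sides of it.

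The leukotriene enzymes did not pass the test. ALOX5AP, which presents arachidonic acid to 5-lipoxygenase, had 5 probes. Capitals mark the 31 bases that the upstream pair below shares.

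ALOX5AP probe A_72_P557500: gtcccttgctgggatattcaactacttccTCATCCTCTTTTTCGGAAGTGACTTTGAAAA
ALOX5AP probe A_72_P627111: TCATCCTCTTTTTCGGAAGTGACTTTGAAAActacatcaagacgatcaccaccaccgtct

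Probe A_72_P207457 repeats the first of these, and O10688 and A_72_P153186 share a sequence at the downstream end. The 5 probes thus read 2 stretches of the transcript. The upstream stretch gave differences of 0.13 to 0.16 and the downstream stretch 0.02 and 0.04. Repeated spots differed with an SD of 0.07 and 0.11 over the 21 arrays. Their mean ranged from 10.8 to 12.7 in DD pigs (median 11.8) and from 11.2 to 12.4 in LW pigs (median 11.6). The difference was 0.10, with a 95% interval from -0.30 to 0.49 (limma adjusted p = 0.74).

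ALOX5 was measured by 1 probe, well above background in 4 of 10 DD and 6 of 11 LW pigs. It read 2.61 in DD_16, from 4.32 to 5.75 in the other DD pigs and from 3.91 to 5.80 in LW pigs. The difference was -0.19 ± 0.28 (SE, limma adjusted p = 0.659), and it was 0.07 without DD_16. LTA4H, which makes leukotriene B4, varied little. It ranged from 9.11 to 9.57 in DD pigs and from 9.31 to 9.75 in LW pigs, and the difference was -0.11, with a 95% interval from -0.28 to 0.06 (limma adjusted p = 0.337). A spot shifted by 2 bases, named by a sequence number, gave 0.00 (limma adjusted p = 0.995).

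**Figure D4:**
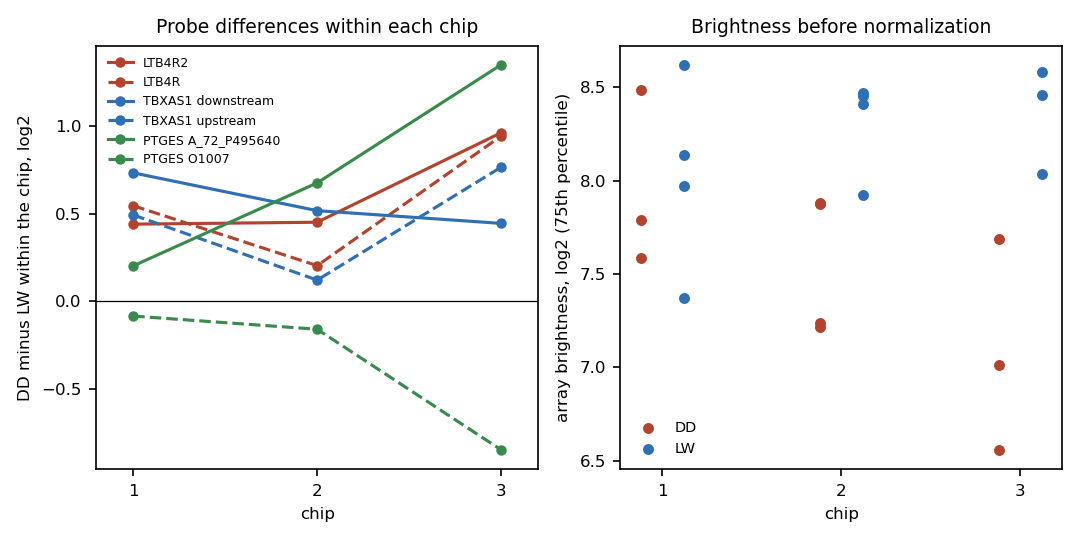
Left, DD minus LW log2 intensity (y axis) within chips 1, 2 and 3 (x axis) for probes of LTB4R2, LTB4R, TBXAS1 and PTGES. Right, array brightness before normalization (y axis, 75th percentile of processed signal in log2) by chip for DD and LW pigs. The PTGES differences spread apart from chip 1 to chip 3 along with the brightness gap, whereas the downstream TBXAS1 probe gave 0.73, 0.52 and 0.45. The LTB4R2 probe (0.44, 0.45 and 0.96) and the LTB4R probe (0.55, 0.20 and 0.94) were also largest on chip 3.

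Of 60 other genes of eicosanoid metabolism and signalling, 41 had a probe and 36 were tested. In DD pigs 7 rose, 3 fell and 26 did not pass the test, with a median difference of 0.04. Over all features 11.4% were called higher and 9.41% lower, with a median of -0.04. The phospholipases A2, the enzymes that release fatty acids from membranes, were the group with the most genes tested, and 6 of these 13 rose and 1 fell, beside the same background. Of those with the same sign on all chips, PLA2G10 rose by 1.40 ± 0.46, PLA2G1B by 0.71 ± 0.19, PLA2G6 by 0.73 ± 0.24 and PLA2G5 by 0.79 ± 0.21 (SE, limma adjusted p = 0.038, 0.0165, 0.0374 and 0.0179). The size for PLA2G10 rested in part on LW_12, which read 9.01 against an LW median of 13.7, and without it the difference was 0.93 (limma adjusted p = 0.0277). PLA2G6 was not called when probes were also named through accessions (0.31, limma adjusted p = 0.0905). PLA2G2D was well above background on 0 of 11 LW arrays and 2 of 10 DD arrays, so no fold is given for it (limma adjusted p = 0.0455), and it stayed called in 6 of 21 fits that left out 1 animal. PLA2G5 was well above background on 4 DD and 2 LW arrays, and PLA2G1B on 6 DD and 7 LW arrays. Within chips PLA2G1B differed by 0.02, 0.93 and 1.19 on chips 1, 2 and 3. With array brightness in the model PLA2G1B was 0.18 (limma adjusted p = 0.852). These are mostly secreted enzymes, whereas PLA2G4A, the cytosolic phospholipase that feeds the eicosanoid enzymes in leucocytes, ranged from 5.40 to 6.33 in DD and from 5.46 to 6.33 in LW pigs and differed by -0.08 (limma adjusted p = 0.679).

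PLA2G7, which degrades platelet-activating factor, fell by 0.81 ± 0.18 (SE, limma adjusted p = 0.0062). It ranged from 4.56 to 5.58 in DD pigs and from 4.86 to 7.09 in LW pigs. PTGDS, a prostaglandin D synthase, was the only 1 of 8 other prostanoid enzymes and transporters that was called, and it rose by 0.71 ± 0.21 (SE, limma adjusted p = 0.0275). HPGD, a prostaglandin dehydrogenase also listed for this group, was not among the calls here. Only 8 of the 12 genes listed for the group had a probe by name, so a gene without a call may not have been measured. The paper, which annotated the probes anew, has HPGD among its most lowered genes in DD pigs. MGST1, a microsomal glutathione transferase, fell by 0.28 ± 0.09 (SE, limma adjusted p = 0.0326), and EPHX2, the soluble epoxide hydrolase, fell by 0.35 ± 0.11 (SE, limma adjusted p = 0.0338). The EPHX2 difference was -0.67 both from its probe with the highest mean and from probes well above background on at least 10 arrays (limma adjusted p = 0.00609 and 0.00404), and its call was lost in 11 of 17 settings that kept every animal or left out a chip. MGST1 also lost its call in 11 of these 17 settings. From its probe with the highest mean MGST1 was -0.40 ± 0.26 (SE, limma adjusted p = 0.265). The 4 prostanoid receptors tested did not pass the test, among them TBXA2R, the receptor of thromboxane, at 0.36 ± 0.14 (SE, limma adjusted p = 0.0647). All 10 calls were lost with brightness in the model and again without chip 3. With brightness MGST1 was -0.28 and EPHX2 -0.32, close to their sizes above, whereas PLA2G10 was 0.67, PTGDS 0.11 and PLA2G3, which had risen by 0.38, was -0.00045. Without chip 3 PLA2G10 was 1.36, PLA2G5 0.75 and MGST1 -0.29.

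**Figure D5:**
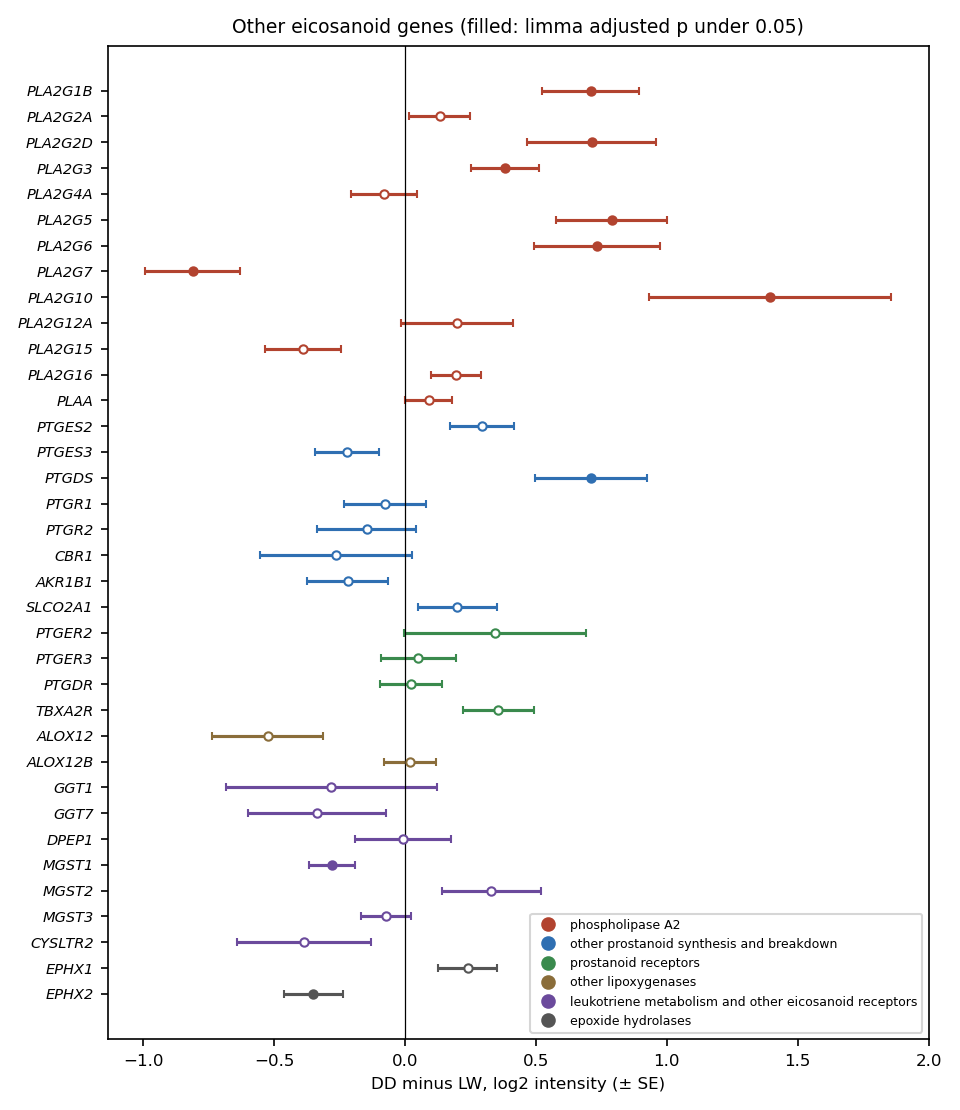
DD minus LW log2 intensity (x axis, ± SE of limma) for the 36 tested genes of eicosanoid metabolism and signalling outside the 10 followed above (y axis), coloured by group, with filled points for an adjusted p under 0.05. The phospholipases are 13 of the 36 genes and hold 7 of the 10 filled points, from -0.81 for PLA2G7 to 1.40 for PLA2G10.

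The markers of the cells that make or sense eicosanoids were read beside these results. Of 8 monocyte markers 1 fell in DD pigs (CD163, -0.72, limma adjusted p = 0.0233) and the others did not pass the test, and their summed level ran from 11.7 to 12.9 in DD and from 11.5 to 12.8 in LW pigs. The 7 neutrophil markers tested did not pass the test, with sums from 13.0 to 14.3 in DD and from 13.3 to 14.5 in LW pigs. Of 7 platelet markers 2 fell (PPBP and F2R), with sums from 12.2 to 13.7 in DD and from 12.6 to 14.4 in LW pigs. RGS18, also chosen as a platelet marker, was not among these calls, though the paper has it among its most lowered genes. Only 7 of the 13 platelet markers chosen had a probe by name, so a marker without a call may not have been measured. None of these 3 lists had a member near background. The lists for T cells (4 of 9 lower) and red cells (4 of 7 higher) also held calls, beside the 9.41% of all features called lower and the 11.4% called higher. Eosinophil, basophil and mast cell markers held 1 call (GATA2, higher). The part of cell composition in the receptor and TBXAS1 differences was not tested.

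With the means of breed and chip removed, the LTB4R values over the 21 arrays were most like those of LTBR (Pearson r = 0.88), CSF1R (0.87) and PSAP (0.86). Those of LTB4R2 were most like GAL3ST1 (0.79), CCRL2 (0.77) and EDN3 (0.75). These are the highest coefficients among the genes with a RefSeq symbol and are given as a description. The arrays share chips and litters, and the lists of like genes differ although the probes share 59 bases.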

How the data were processed

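Blood RNA was labelled with 1 dye and read on an Agilent pig array (Feature Extraction 10.7.3.1, per the file headers). The authors background corrected (normexp), log2 scaled and quantile normalized the deposited log2 matrix used here, after outlier arrays had been removed. The authors also deposited scanner intensity values and flags, used here for brightness, background and other normalizations. The number of arrays limits the precision.

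Controls and the dimmest 25% of probes were dropped, and probes of 1 gene name were averaged. limma 3.58.1 in R 4.3.3 fitted breed and chip, with the litter as a random block (correlation -0.11) and Benjamini-Hochberg adjustment over 34393 features or 45228 probes. As this correlation was negative, the block narrowed the standard errors, as for LTB4R (0.162 with it and 0.169 without). Litter and chip came from the study's animal list. Litter means, with the chip effect removed, were compared by an exact permutation over 462 divisions. The model was tested on simulated data that held no likeness within litters. It called 62% of true differences of 0.75 and 95% of those of 1.5, with 12 false calls. Only 100 of 34393 features were changed at each size, against 20.9% called in the data, so these percentages may not carry over. Smaller differences were not simulated.

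The text names all members, other pathway genes called with 1 sign on all chips, and the 3 genes most like each called member. Members and lists were chosen with earlier results of these data known. A pathway gene that lacks a probe by name was not analysed here.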

Additional observations from a re-analysis of the deposited data

Results flagged for a closer look

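The ALOX5 probe had 1 low reading in the DD group. It read 2.61 in DD_16 and between 4.32 and 5.75 in the other 9 DD pigs, a gap of 0.546 of the whole range, above Dixon's 95% critical value of 0.466 for 10 animals. Of 25 measures tested in the DD group this was the only 1 that passed, and chance alone gives about 1 in 20 (5%). The ALOX5 probe was well above background in 4 of 10 DD pigs, and on the array of DD_16 its reading lay under the lowest value well above background (4.52). DD_16 was also the lowest DD pig for LTB4R, TBXAS1, ALOX5AP and LTA4H, though not by this rule.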

How the results depend on the processing

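No paired analysis was possible because the breeds share no animal, and the animal numbers differ between them. LTB4R2 stayed called in every setting tried except without chip 3 (0.44), and TC614844 in every setting that kept it as a feature of its own. LTB4R kept its sign in all settings. The count of 7171 called features fell to 4397 with no filter on dim probes, 1866 with no chip term, 739 with brightness in the model, 3712 with the downstream minus upstream signal in the model and 524 without chip 3, and it ranged from 2159 (without LW_18) to 11304 (without DD_06) when 1 animal was left out. Leaving out DD_21, DD_23, LW_05, LW_12 or LW_22 also moved it by over 1.5 times (2957, 3968, 4515, 4529 and 3746). With no litter block the count was 4894, and PLA2G10, PLA2G2D, PLA2G3 and EPHX2 lost their calls. The 2 called members became 1 with no chip term, with brightness, with the downstream minus upstream signal or without chip 1, and 0 without chip 3, and 1 to 3 when 1 animal was left out. The count of 9809 called probes became 1045 with brightness, 5490 with the downstream minus upstream signal and 649 without chip 3, and 3132 (without LW_18) to 15270 (without DD_06) when 1 animal was left out. DD_21, DD_23, LW_05, LW_12 and LW_22 moved that number to 4267, 5529, 6391, 6467 and 5277. The 4 called member probes became 2 with brightness, 2 without chip 1 and 1 without chip 3, and ranged from 3 to 7 when 1 animal was left out, with 7 without LW_24. The fits with the downstream minus upstream signal and all these probe fits except the main one were added after the data were seen. The cause of these losses was not tested.

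TBXAS1 passed the threshold with normexp offset 0 (0.50) or 50 (0.42), the 75th percentile (0.58), cyclic loess (0.61), probes well above background on at least 10 arrays (0.49), the probe with the highest mean (0.56), litter means (0.54) and without chip 2 (0.52). The following differences changed sign. ALOX5 was 0.041 with the 75th percentile and 0.29 without chip 2, LTA4H 0.0037 with cyclic loess, and PTGES -0.33 from its probe with the highest mean. ALOX5AP was -0.015 with the downstream minus upstream signal and -0.0016 without chip 3. Its probes then gave -0.0026 and -0.0036 (A_72_P627111), -0.047 and -0.069 (A_72_P557500) and -0.056 and -0.092 (A_72_P207457), while without chips 1 and 2 O10688 gave -0.040 and -0.098 and A_72_P153186 -0.045 and -0.019. PTGS1 was -0.013 with normexp offset 0, -0.00026 with cyclic loess, -0.034 with no filter, -0.14 with the downstream minus upstream signal, -0.24 without chip 3 and -0.038 in litter means with no chip correction. PTGES probe A_72_P177991 was 0.27 with the 75th percentile and 0.052 with brightness. PLA2G3 was -0.00045 with brightness. Leaving out 1 animal turned the sign of ALOX5 (-0.297 to 0.0704), PTGS1 (-0.10 to 0.19), O10688 (-0.057 to 0.107) and A_72_P153186 (-0.0334 to 0.132). Litter means with no chip correction left TBXAS1 at 0.49 (exact permutation p = 0.0541). PTGS1 and ALOX5 were limited by signal, being above background on fewer than 11 arrays.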

Other observations

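The pair of PTGS1 probes with the same sequence, both among the dimmest 25%, read 8.59 (O9038) and 3.73 (A_72_P360403) on the array of DD_21. Over all 21 arrays the gap between them had an SD of 1.42. The pairs of ALOX5AP spots with the same sequence differed with an SD of 0.07 and 0.11. DD_21 also had the dimmest array, at 6.56. The cause was not tested.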
